A study of Rattus norvegicus with 18 samples.

Results

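The miR-29 family was examined as all rows of the small RNA count table named rno-miR-29a, rno-miR-29b or rno-miR-29c, whatever the arm or gene copy. The rule found 7 of 753 mature microRNAs (miRNAs): rno-miR-29a-3p, rno-miR-29a-5p, rno-miR-29b-3p, rno-miR-29b-5p, rno-miR-29b-1-5p, rno-miR-29c-3p and rno-miR-29c-5p, written below without the rat prefix rno. Small RNA had been sequenced from the dorsal root ganglia (DRG) of cervical levels 6 to 8 in 18 adult lister hooded rats, 6 per group, with 1 library per rat. Naive rats were unoperated and received no vector. In both other groups the corticospinal tracts were cut on both sides in the medullary pyramids (bPYX), and an adeno-associated virus of serotype 1 with a CMV promoter was injected into forelimb flexor muscles of 1 side a day later. That vector encoded green fluorescent protein (bPYX+GFP) or human prepro-neurotrophin-3 (bPYX+NT3), and ganglia of the injected side were taken 10 weeks after injury. No group was injured without a vector, so injury and GFP vector cannot be told apart in bPYX+GFP against naive. Whole ganglia of a rat were pooled and homogenised, neurons and glia together, so that fewer cells of a type and less RNA per cell cannot be told apart.

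A miRNA precursor is a hairpin that gives a 5p and a 3p strand. One strand, the guide, is usually kept in the silencing complex, where bases 2 to 8 (the seed) pair with messenger RNAs and lower their output, while the other, the passenger, is mostly degraded. In the miR-29 family the guides are the 3p strands. They are known for repressing collagens, elastin, laminins and other matrix genes, as well as DNA methyltransferases, and for rising as neurons mature. The family is made from a pair of gene clusters. In the RefSeq annotation of rat assembly GRCr8, Mir29a and Mir29b1 lie close together on the minus strand of chromosome 4, and Mir29b2 and Mir29c on the plus strand of chromosome 13. That assembly is not the build to which the reads were aligned, and it was used here for sequences, names and neighbours only.

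All 7 members matched a RefSeq mature sequence. The guides are shown first because they carry the shared seed, in capitals. miR-29b-3p is made with the same sequence by Mir29b1 and Mir29b2.
miR-29a-3p: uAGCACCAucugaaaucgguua
miR-29b-3p: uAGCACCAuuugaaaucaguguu
miR-29c-3p: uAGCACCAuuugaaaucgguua
Counted from the 5′ end, miR-29a-3p and miR-29c-3p differ by 1 substitution, C10U. Between miR-29c-3p and miR-29b-3p there are 3, G18A, U21G and A22U, and miR-29b-3p is 1 base longer. No other mature sequence in the RefSeq table had the seed AGCACCA.

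The 5p strands had 4 different seeds, in capitals, none of which any other mature sequence of that table held. They are shown because 2 of them, miR-29a-5p and miR-29b-1-5p, were the members with reads.
miR-29a-5p: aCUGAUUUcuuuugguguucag
miR-29b-1-5p: uUUCAUAUggugguuuagauuu
miR-29b-5p: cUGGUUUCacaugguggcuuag
miR-29c-5p: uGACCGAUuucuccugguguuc

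None of the 3 guide strands had a read counted. miR-29a-3p, miR-29b-3p and miR-29c-3p were listed at 0 in all 18 libraries, and so were both 5p strands of the chromosome 13 cluster, miR-29b-5p and miR-29c-5p. The reads came from both passenger strands of the chromosome 4 cluster, with 542 counts of miR-29a-5p and 775 of miR-29b-1-5p over the 18 libraries. A count of 0 in libraries of 3.88 to 6.92 M miRNA counts (M, mega) allows up to 3 counts by a one-sided 95% limit, or 0.434 to 0.773 per M, as far as counting error goes. That limit covers only reads that the counting could assign to a row. The count table gives no level for the strands that define the family as matrix regulators, and what follows for the groups rests on its passenger strands.

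Each guide lay across from another annotated miRNA, encoded on the opposite strand of the same bases. The opposite-strand miRNAs are shown because their capitals mark the bases that are the reverse complement of a guide, which here is their whole length.
miR-3556a, across from miR-29a-3p: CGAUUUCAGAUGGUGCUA
miR-3587, across from miR-29b-3p at Mir29b1: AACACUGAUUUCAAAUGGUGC
miR-3556b, across from miR-29c-3p: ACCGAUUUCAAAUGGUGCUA
These 3 miRNAs were also listed at 0 in every library. At Mir29b2 the table of mature sequences held no miRNA across from miR-29b-3p, nor any across from the 4 5p strands.

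The same comparison was made over the whole table, where 688 of 753 rows had a RefSeq mature sequence. Of 94 rows that overlapped a mature miRNA of the opposite strand by at least 1 base at any of their gene copies, 82 (87.2%) were listed at 0 in all libraries. Of 594 rows with no such overlap, 81 (13.6%) were. In 38 pairs of arms in which 1 arm had such an overlap and the other had none, the overlapping arm was at 0 in 28, and in 24 of these the other arm had reads. The pairs of miR-29a and miR-29b-1 are among those 24. miR-29b-5p and miR-29c-5p, by contrast, are among the 81 rows at 0 with no overlap. Each library also held 0.324 to 0.661 M reads that the authors' counting had set aside as ambiguous, 3.26 ± 0.25% of all entries (SD, n = 18), which is where the counter puts a read that covers more than 1 annotated feature. A larger class, 31.4 ± 1.88% of all entries, had been set aside for low alignment quality, where reads that align to several places, such as the gene copies of 1 miRNA, are often put. Whether reads of the miR-29 guides are in either class was not tested.

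**Figure D1:**
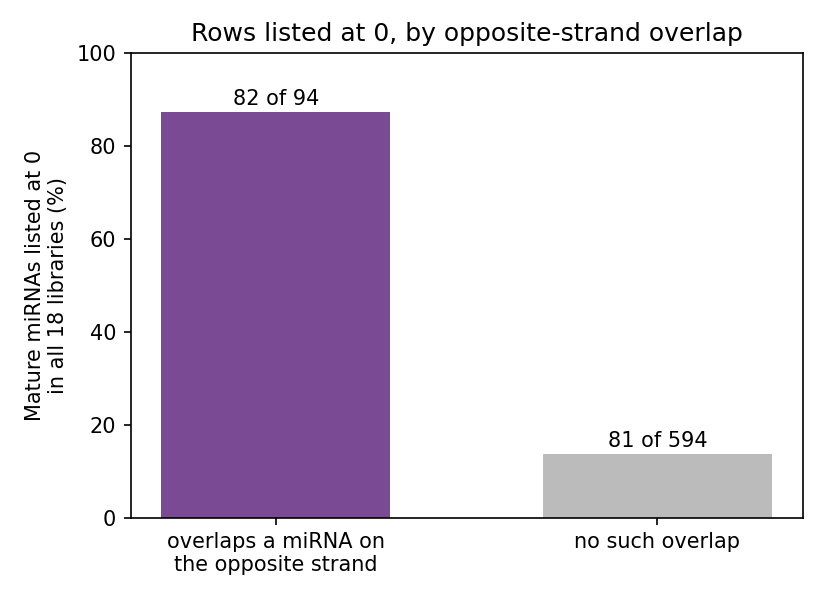
Share of mature miRNAs listed at 0 in all 18 libraries (y axis, percent of rows), for rows whose sequence overlaps a mature miRNA on the opposite strand in GRCr8 and for rows with no such overlap; the numbers above the bars are rows at 0 of all rows. The share was 87.2% with an overlap, which all 3 miR-29 guides have, and 13.6% without.

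Reads given to a mature miRNA were 4.70 ± 0.66 M per library (SD, n = 18). Of DRG markers, miR-182 and miR-96-5p of sensory neurons were at 19521 to 28567 and 3434 to 5261 counts per M after TMM scaling (CPM), and miR-204-5p of glia at 5315 to 11922 CPM. miR-124-3p, a neuronal marker, was at most 1.61 CPM. Other defining markers, miR-183-5p of sensory neurons, miR-338-3p of Schwann cells, and miR-1-3p and miR-133a-3p of muscle, were listed at 0, and each overlaps an opposite-strand miRNA, as the miR-29 guides do. The summed levels of each marker list had ranges that overlapped between the groups. For fibroblasts, the main matrix-producing cells, miR-199a-3p, miR-199a-5p and miR-214-3p summed to between 1627 and 2459 CPM in naive, 1387 and 1870 CPM in bPYX+GFP and 1544 and 1851 CPM in bPYX+NT3 rats.

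Both counted strands were scarce. miR-29b-1-5p averaged 9.18 CPM over all libraries, rank 297 of the 373 miRNAs that passed the detection filter, and miR-29a-5p averaged 6.49 CPM, rank 315, where the median of the 373 was 68.0 CPM. Both strands are 22 bases long. Raw counts per library ran from 19 to 46 for miR-29a-5p and from 25 to 69 for miR-29b-1-5p. The lowest of these, 19, has an exact 95% Poisson interval of 11.4 to 29.7 counts and the highest, 69, one of 53.7 to 87.3, for counting error only, since PCR reads without molecular identifiers are not independent molecules.

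miR-29a-5p, the passenger strand of Mir29a, had its highest mean with NT3. Its counts were 25, 22, 30, 22, 32 and 30 in naive replicates 1 to 6, which is 4.41 to 6.55 CPM with a median of 5.90. In bPYX+GFP replicates they were 20, 32, 25, 28, 34 and 19, or 3.97 to 6.96 CPM with a median of 5.34. In bPYX+NT3 replicates they were 45, 33, 46, 32, 40 and 27, or 5.51 to 10.4 CPM with a median of 8.13. Of the 6 NT3 rats, 5 lay above every naive and every bPYX+GFP rat, and NT3 replicate 6, at 5.51 CPM, lay within both other groups.

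miR-29b-1-5p, the passenger strand of the neighbouring Mir29b1, had another pattern. Its counts were 27, 40, 47, 33, 30 and 42 in naive rats, or 5.84 to 10.3 CPM with a median of 7.66. They were 46, 49, 69, 46, 56 and 46 in bPYX+GFP rats, or 9.99 to 11.4 CPM with a median of 10.6. In bPYX+NT3 rats they were 43, 48, 36, 25, 39 and 53, or 6.36 to 11.8 CPM with a median of 8.78. The bPYX+GFP rats were high and close together, 5 of them above every naive rat, while the bPYX+NT3 rats spread over nearly the whole range of both other groups.

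How far rats differed beyond counting error also varied. The chi-square per degree of freedom of the counts around the group's mean level, which is about 1 when rats differ by counting error alone, was 0.506, 1.80 and 1.68 for miR-29a-5p in naive, bPYX+GFP and bPYX+NT3 rats. For miR-29b-1-5p it was 2.30, 0.104 and 2.24 in that order. The spread among bPYX+GFP rats in miR-29b-1-5p was thus smaller than reads drawn at random usually give, and 6 rats are too few to estimate a spread well.

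**Figure D2:**
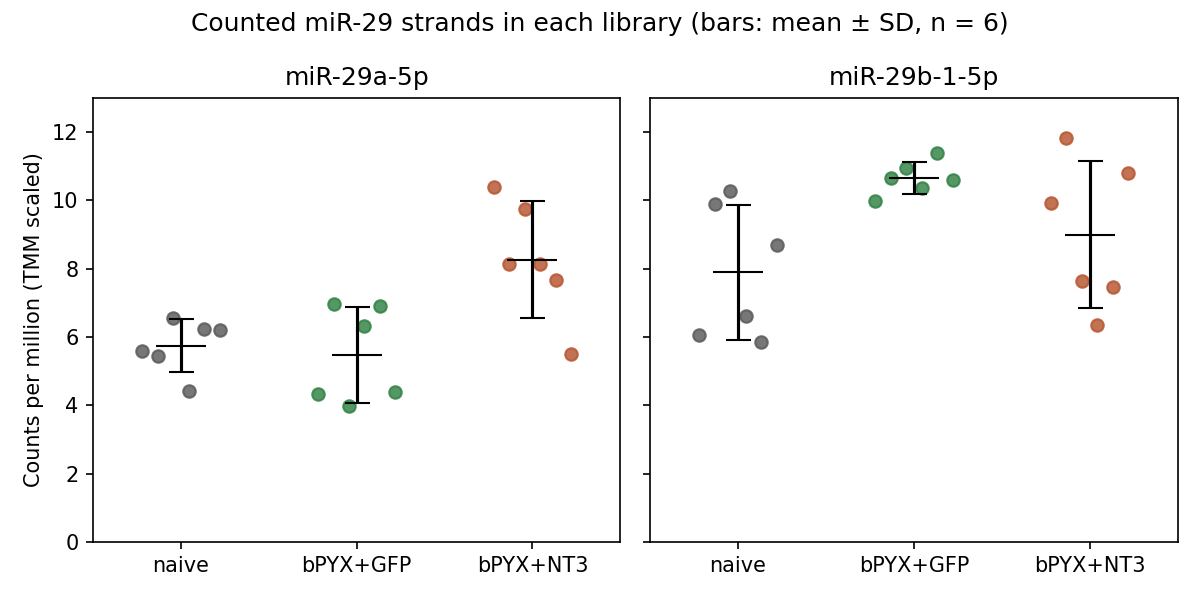
Level of miR-29a-5p (left) and miR-29b-1-5p (right) in counts per M after TMM scaling (y axis), with 1 point per library by group (x axis) and bars for the mean ± SD of 6 rats. miR-29a-5p is highest in bPYX+NT3, with 5 of 6 rats above all others, and miR-29b-1-5p is high and narrow in bPYX+GFP, between 9.99 and 11.4.

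To see what differed after corticospinal injury, rats given bPYX+GFP were set against naive rats. miR-29b-1-5p was 1.36-fold higher with bPYX+GFP, at 10.7 ± 0.48 CPM where naive ganglia had 7.89 ± 1.98 CPM (SD, n = 6). Its log2 fold change was 0.44 ± 0.15 (SE), with an unadjusted p of 0.0097 and a Benjamini-Hochberg adjusted p of 0.122 in the quasi-likelihood test of edgeR, and 6 of 6 bPYX+GFP rats were above the naive mean. For miR-29a-5p the means were 5.48 ± 1.40 CPM with bPYX+GFP and 5.74 ± 0.77 CPM in naive ganglia, and the log2 fold change was -0.07 ± 0.18 (edgeR unadjusted p of 0.685, adjusted p of 0.904), with 3 of 6 rats above the naive mean. At the criterion of the study, an unadjusted p under 0.05, 1 of the 2 tested members was called, where 21.2% of the 373 tested miRNAs were. Neither passed at an adjusted p under 0.05, which 2.41% of tested miRNAs did, and in neither were the groups free of overlap, as they were in 4.02%. Of 15 cell type markers tested, 1 was higher and 2 were lower in the same comparison. The higher was miR-182 of sensory neurons, with a log2 fold change of 0.20 (edgeR unadjusted p of 0.0223, adjusted p of 0.173), and miR-96-5p was not called, at 0.07 (edgeR unadjusted p of 0.441). The 3 sensory neuron markers with reads, of 4 in their list, summed to 23640 to 31008 CPM in naive rats, and 28965 to 33100 CPM with bPYX+GFP. miR-145-5p of smooth muscle was lower, at a log2 fold change of -0.50 (edgeR unadjusted p of 0.00279), and miR-143-3p of the same list was at 0.01. miR-199a-5p of fibroblasts was lower, at -0.21 (edgeR unadjusted p of 0.0416), while miR-199a-3p and miR-214-3p were at -0.01 and -0.04 and not called. The part of these markers in the result for miR-29b-1-5p was not tested.

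What differed with neurotrophin-3 among injured rats was asked by setting bPYX+NT3 against bPYX+GFP. Here miR-29a-5p was 1.52-fold higher with NT3, at 8.26 ± 1.71 CPM where GFP-treated rats had 5.48 ± 1.40 CPM. The log2 fold change was 0.60 ± 0.21 (edgeR unadjusted p of 0.0122, adjusted p of 0.284), and 6 of 6 NT3 rats were above the bPYX+GFP mean. Of all tested miRNAs, 98.4% had a smaller absolute log2 fold change. By unadjusted p in edgeR miR-29a-5p ranked 16 of the 373, and its few counts make its fold change less exact. Of the 15 cell type markers 1 was called, miR-145-5p of smooth muscle, higher with NT3 at a log2 fold change of 0.40 (edgeR unadjusted p of 0.0249, adjusted p of 0.442). miR-143-3p of the same list was at -0.002 and not called (edgeR unadjusted p of 0.988). The part of miR-145-5p in this result was not tested. miR-29b-1-5p was 9.00 ± 2.16 with NT3 and 10.7 ± 0.48 CPM with GFP (log2 fold change -0.24 ± 0.15, edgeR unadjusted p of 0.145, adjusted p of 0.668), lower than the bPYX+GFP mean in 4 of 6 rats. Without bPYX+NT3 replicate 2 its log2 fold change was -0.34 and its unadjusted p in edgeR 0.0368. The unadjusted criterion thus called 1 of the 2 members, where it called 8.58% of tested miRNAs, 5.09% as higher with NT3 and 3.49% as lower. By adjusted p edgeR called none of the 373 (0%), though 32 were under 0.05 without adjustment, and groups free of overlap were found in 0% too.

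Treated rats were also set against uninjured ones. miR-29a-5p was 1.43-fold higher in bPYX+NT3 than in naive ganglia, with a log2 fold change of 0.52 ± 0.17 (edgeR unadjusted p of 0.00657, adjusted p of 0.191), and 5 of 6 NT3 rats were above the naive mean. For miR-29b-1-5p, with means of 9.00 ± 2.16 CPM with NT3 and 7.89 ± 1.98 CPM in naive ganglia, the log2 fold change was 0.19 ± 0.19 (edgeR unadjusted p of 0.332, adjusted p of 0.70), and 3 of 6 NT3 rats were above the naive mean. Of the 15 cell type markers 1 was called here, miR-182, higher at a log2 fold change of 0.19 (edgeR unadjusted p of 0.0407, adjusted p of 0.349). miR-96-5p of the same list was at -0.04 and not called (edgeR unadjusted p of 0.692). The part of miR-182 in these results was not tested. The unadjusted criterion called 1 of the 2 members and 13.7% of tested miRNAs, 51 in number, 7.24% as higher with NT3 and 6.43% as lower. By adjusted p edgeR called none (0%), and groups overlapped in both members, while 1.34% of tested miRNAs had groups free of overlap. The 3 comparisons share libraries in pairs, so a group that is high or low enters 2 of them. Ambiguous reads made up 2.61 to 3.26% of naive libraries, 3.22 to 3.58% of bPYX+GFP libraries and 3.10 to 3.72% of bPYX+NT3 libraries, and their part in these results was not tested.

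**Figure D3:**
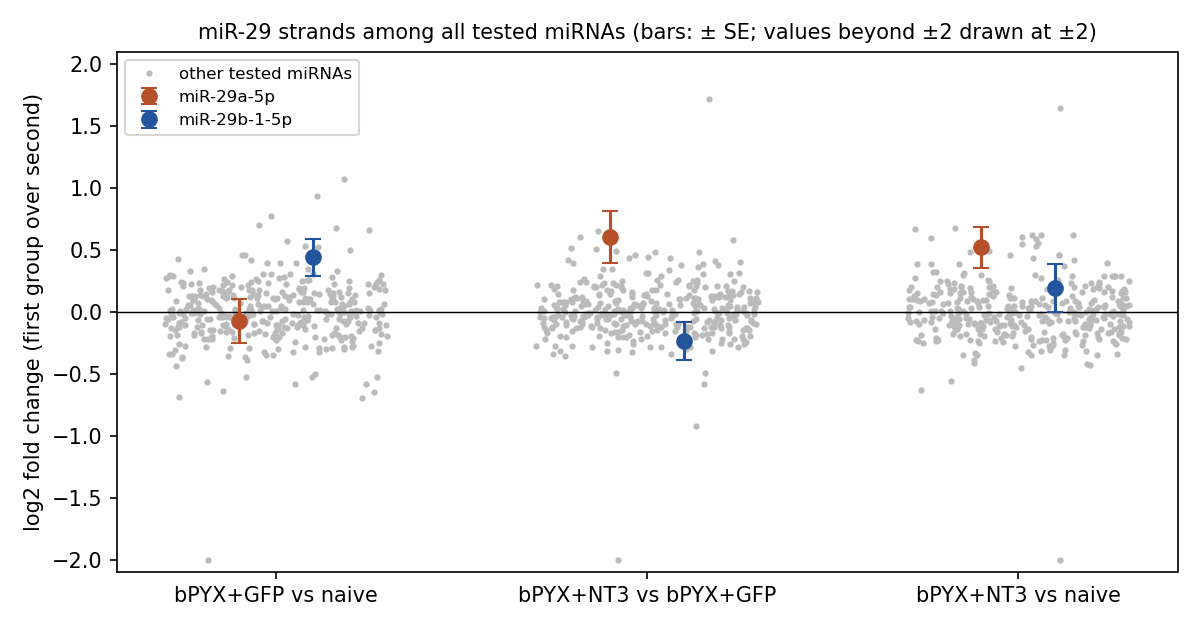
Log2 fold change (y axis) of miR-29a-5p and miR-29b-1-5p with ± SE bars in the 3 comparisons (x axis), over grey points for the other tested miRNAs; values beyond ±2 are drawn at ±2. miR-29b-1-5p stands at 0.44 with bPYX+GFP against naive, and miR-29a-5p at 0.60 and 0.52 with NT3, farther from 0 than 93.0%, 98.4% and 95.7% of tested miRNAs. By unadjusted edgeR p they ranked 29, 16 and 12 of 373, and both strands have few counts.

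Since both strands come from neighbouring genes, their ratio within a library was compared, which does not depend on library scaling. This measure was chosen after the counts had been seen, in place of the ratios of 5p to 3p strands, which could not be formed. It joins the same counts as the fold changes above, so it is not separate evidence. The adjusted p values given for it do not cover that choice. miR-29b-1-5p exceeded miR-29a-5p in 5 of 6 naive, 6 of 6 bPYX+GFP and 2 of 6 bPYX+NT3 rats. The ratio of counts ran from 0.938 to 1.82 in naive, from 1.53 to 2.76 in bPYX+GFP and from 0.781 to 1.96 in bPYX+NT3 rats. On the log2 scale, with 0.5 added to each count, the group means were 0.43 ± 0.35, 0.98 ± 0.35 and 0.12 ± 0.52 (SD, n = 6).

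The ratio was lower with NT3 than with GFP by a log2 difference of -0.87 ± 0.26 (SE; two-sided exact permutation test over all splits of 12 libraries, p = 0.0152, adjusted over the 3 comparisons 0.0455). All 6 NT3 rats lay below the bPYX+GFP mean and 5 below every bPYX+GFP rat. Between bPYX+GFP and naive rats it differed by 0.56 ± 0.20 (exact permutation p = 0.0303, adjusted 0.0455), with 6 of 6 bPYX+GFP rats above the naive mean. This second difference lost its call without any 1 of 5 rats. The exact p was 0.0519 without bPYX+GFP replicate 1 or 6, 0.0584 without naive replicate 1, the rat that the study left out, or 5 and 0.0606 without bPYX+GFP replicate 3. Between bPYX+NT3 and naive rats the difference was -0.31 ± 0.26 (exact permutation p = 0.251).

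**Figure D4:**
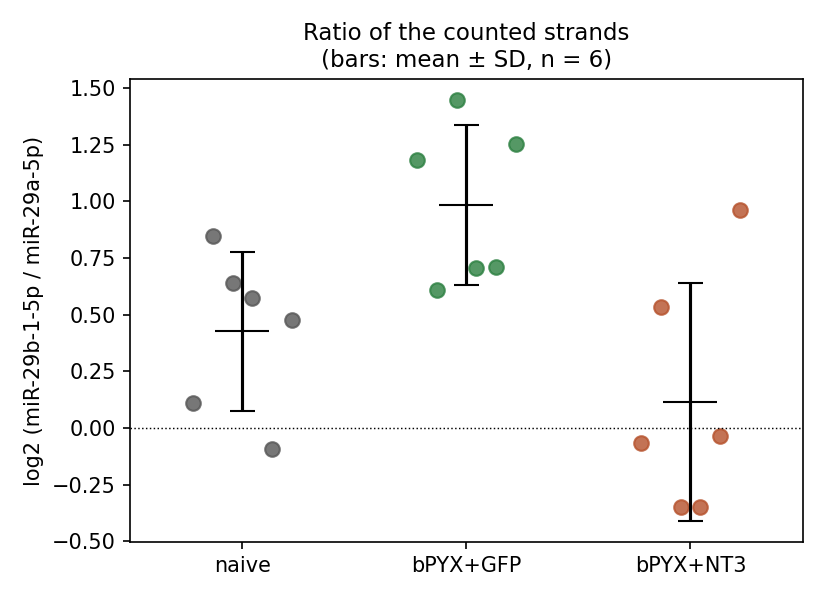
Log2 ratio of miR-29b-1-5p to miR-29a-5p counts (y axis, 0.5 added to each count), with 1 point per library by group (x axis) and bars for the mean ± SD of 6 rats; the dotted line marks equal counts. All bPYX+GFP rats lie above equal counts, at 0.61 or more, and 4 of 6 bPYX+NT3 rats lie below it.

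Across the 18 libraries the levels of these neighbouring strands were not seen to vary together (log2 CPM, Pearson r = -0.0919, permutation p = 0.714; Spearman rho = -0.0939, permutation p = 0.709). For deviations from group means r was 0.0137 (permutation p = 0.956) and rho 0.0526 (permutation p = 0.837). Without the 2 libraries farthest from the median of miR-29a-5p, r was -0.0727. Within naive, bPYX+GFP and bPYX+NT3 rats r was 0.318, 0.330 and -0.249, with 6 libraries each. With 19 to 69 counts per library, counting error can hide a shared variation, so these values cannot decide whether the strands vary together.

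The patterns most like each strand were sought among 371 other tested miRNAs, by the Pearson correlation of log2 CPM over 18 libraries, given as a description of the closest of many. For miR-29a-5p these were miR-205, an epithelial miRNA (r = 0.739), miR-138-5p, found in neurons (r = 0.652), and miR-380-3p of an imprinted cluster (r = 0.635). miR-205 averaged 68.6 ± 11.4 CPM in naive, 67.1 ± 11.8 CPM in bPYX+GFP and 93.9 ± 37.7 CPM in bPYX+NT3 rats (SD, n = 6), and miR-138-5p 946 ± 106, 951 ± 117 and 1157 ± 242 CPM, so both had their highest mean with NT3. For miR-29b-1-5p the closest were miR-421-3p (r = 0.791), miR-455-3p (r = 0.746) and miR-339-5p (r = 0.719). miR-421-3p averaged 64.5 ± 6.68 CPM in naive, 78.3 ± 4.55 CPM in bPYX+GFP and 71.9 ± 7.31 CPM in bPYX+NT3 rats. All 3 had their highest mean in bPYX+GFP, as miR-29b-1-5p did. Likeness in group means follows in part from picking the closest over the same libraries. For deviations from group means, r was 0.642, 0.469 and 0.454 for the 3 of miR-29a-5p in the order given. It was 0.669, 0.736 and 0.637 for those of miR-29b-1-5p.

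A list of 14 other miRNAs known for collagen, matrix or fibroblast biology was set beside these values. Of the 14, 13 were tested and miR-133a-3p was listed at 0. In bPYX+GFP against naive rats, 2 of the 13 were higher and 3 lower at an unadjusted p under 0.05, beside 10.7% and 10.5% of all tested miRNAs, and the median log2 fold change of the list was -0.01, beside 0.00 over all tested miRNAs. miR-455-3p of cartilage was higher, at 211 ± 11.3 CPM where naive ganglia had 180 ± 19.5 CPM, a log2 fold change of 0.23 ± 0.08 (edgeR unadjusted p of 0.013). miR-101a-3p, with a log2 fold change of 0.21 ± 0.08, was the other (edgeR unadjusted p of 0.0212). The smooth muscle miRNA miR-145-5p was lower with bPYX+GFP, at 1021 ± 139 CPM where naive ganglia had 1446 ± 391 CPM, a log2 fold change of -0.50 ± 0.14 (edgeR unadjusted p of 0.00279). miR-193b-3p, at -0.33 ± 0.08 on the log2 scale (edgeR unadjusted p of 0.0015), and miR-199a-5p of fibroblasts, at -0.21 ± 0.10 (edgeR unadjusted p of 0.0416), were lower too. No adjusted p of the 13 was under 0.05, and those of the 5 lay between 0.051 for miR-193b-3p and 0.232 for miR-199a-5p. The call of miR-199a-5p was lost in 6 of 12 fits without 1 library and in 3 other settings. Its log2 fold change was -0.13 without naive replicate 2, and from -0.22 to -0.18 in the other fits that lost the call. Without bPYX+GFP replicate 4 the call of miR-199a-5p was lost together with that of miR-101a-3p, which left 3 of the 5 calls.

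In bPYX+NT3 against bPYX+GFP rats miR-145-5p was higher (log2 fold change 0.40 ± 0.16, edgeR unadjusted p of 0.0249, adjusted p of 0.442) and miR-455-3p lower (-0.31 ± 0.09, edgeR unadjusted p of 0.0026, adjusted p of 0.217), and the other 11 did not pass, beside 5.09% of all tested miRNAs called higher and 3.49% called lower. The call of miR-145-5p was lost without bPYX+GFP replicate 2 or 4 or bPYX+NT3 replicate 3 or 5. Its log2 fold change was 0.25 without bPYX+NT3 replicate 3, and from 0.33 to 0.37 in the other fits that lost the call. Against naive rats, only miR-192-5p passed among the 13, lower with NT3 (-0.20 ± 0.09, edgeR unadjusted p of 0.038, adjusted p of 0.349), where 6.43% of all tested miRNAs were lower. The call of miR-192-5p was lost in 8 of 12 fits without 1 library, all but those without naive replicate 1 or 6 or bPYX+NT3 replicate 2 or 4, and in 3 other settings. In the fits that lost it, the log2 fold change of miR-192-5p ran from -0.20 to -0.14. miR-21-5p, linked to scar formation, and the fibroblast miRNA miR-199a-3p were not called in any comparison. miR-21-5p averaged 21599 ± 5492 CPM in naive, 18822 ± 4105 CPM in bPYX+GFP and 20949 ± 5839 CPM in bPYX+NT3 rats, and miR-199a-3p was 42.6 ± 7.72, 42.3 ± 7.18 and 42.0 ± 6.75 CPM (SD, n = 6).

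**Figure D5:**
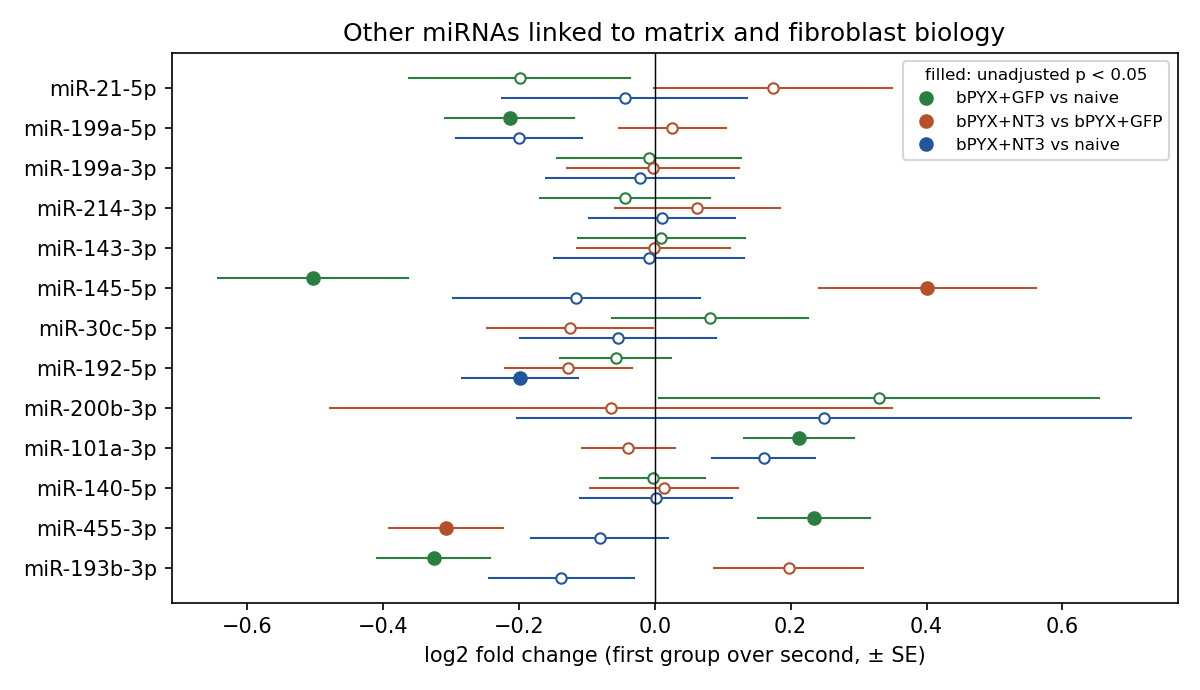
Log2 fold change with ± SE bars (x axis) of the 13 tested miRNAs linked to matrix and fibroblast biology (y axis) in the 3 comparisons, by colour; filled points had an unadjusted edgeR p under 0.05. miR-145-5p and miR-455-3p are filled on opposite sides of 0, with signs that differ between bPYX+GFP against naive and bPYX+NT3 against bPYX+GFP, and miR-21-5p and miR-199a-3p have no filled point.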

How the data were processed

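The authors trimmed adapters, aligned the reads with Bowtie2 to Rnor_5.0 and counted them with HTSeq, and deposited the counts of reads for each mature miRNA as whole numbers, not normalized. The submitters' processing notes name bcl2fastq 1.8.4. The other versions, the miRNA annotation release and the strand setting of the counting are not given in the sources used here. The 5 totals of reads given to no miRNA entered neither library sizes nor tests. The study left out a naive rat as an outlier, here naive replicate 1, which was kept in the main tests and dropped in an alternative.

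miRNAs with more than 10 counts in at least 6 of 18 libraries were tested. Each comparison was fitted on its 12 libraries with edgeR 4.0.16 in R 4.3.3 (TMM scaling, quasi-likelihood F test), with Benjamini-Hochberg adjustment over 373 miRNAs. Each SE is the absolute log2 fold change divided by the square root of F. CPM is counts per M, with TMM factors from all 18 libraries. The edgeR tests were checked on simulated data. No 2 libraries of a group were copies, since the lowest chi-square per degree of freedom between them was 39.6.

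All members are named; list members are named where called, besides miR-21-5p and miR-199a-3p, and the 3 closest patterns of a strand are given, those of miR-29b-1-5p by an addition made after the counts had been seen. The members and lists were chosen with earlier results of these data known. Alternatives were other scalings (median of ratios, library size only), filters (none, more than 100 counts), the likelihood ratio test, DESeq2 1.42.0, a fit of all 3 groups, the replicate number as a block, pseudocounts of 1 and 0.1 for the ratio, and leaving out each library.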

Additional observations from a re-analysis of the deposited data

How the results depend on the processing

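In bPYX+GFP against naive and in bPYX+NT3 against naive rats 1 member was called in every fit, those without 1 library included. In bPYX+NT3 against bPYX+GFP the number ran from 1 to 2 without 1 library, and was 1 in the other settings. Over all settings the adjusted p of called members ranged from 0.0671 to 0.252 for miR-29b-1-5p in bPYX+GFP against naive, from 0.182 to 0.578 for miR-29a-5p against bPYX+GFP and from 0.126 to 0.415 for it against naive. For miR-29a-5p in bPYX+GFP against naive, not called, the log2 fold change without 1 library ran from -0.17 to 0.020, with its sign changed without bPYX+GFP replicate 3. That of miR-29b-1-5p in bPYX+NT3 against naive, also not called, ran from 0.12 without bPYX+NT3 replicate 2 to 0.29 without bPYX+NT3 replicate 4. A filter of more than 100 counts removed both members and gave no value. Without 1 library the log2 difference in the ratio of miR-29b-1-5p to miR-29a-5p ran from 0.45 to 0.64 (exact p from 0.0108 to 0.0606) for bPYX+GFP against naive, and from -1.04 to -0.78 (exact p from 0.00216 to 0.026) for bPYX+NT3 against bPYX+GFP. For bPYX+NT3 against naive, not called, the difference in this ratio ran from -0.48 to -0.22 (exact p from 0.0628 to 0.413). The correlation of both strands changed sign to 0.0703 with library sizes alone and to 0.0137 for deviations from group means. Matrix list calls ran, without 1 library, from 3 to 5 for bPYX+GFP against naive (3 without bPYX+GFP replicate 4), from 1 to 2 for bPYX+NT3 against bPYX+GFP (1 without bPYX+GFP replicate 2 or 4 or bPYX+NT3 replicate 5) and from 0 to 1 for bPYX+NT3 against naive (0 without naive replicate 2 or 5 or bPYX+NT3 replicate 3 or 6). In the last they were 2 with median-of-ratios scaling, without a filter, with DESeq2 and in the fit of all 3 groups, and 0 with the likelihood ratio test; the cause was not tested. With an overlap of at least 10 bases, 88.0% of rows across from an opposite-strand miRNA were at 0. The planned ratios and correlations with a 3p strand or miR-29c-5p could not be formed, since these are listed at 0.

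Replicate numbers were shared by the groups, but the labels give them no meaning, and same-numbered libraries correlated above 0.1 in only 1, 3 and 2 of 6 pairs in the 3 comparisons, in the order given above. With the replicate number as a block 1 member was called in each comparison, with log2 fold changes of 0.45 for miR-29b-1-5p with bPYX+GFP and, for miR-29a-5p, 0.61 against bPYX+GFP and 0.51 against naive.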

Other observations

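Of the 94 rows that overlap an opposite-strand miRNA, 12 had reads, and 5 of these had fewer than 10 over all 18 libraries: miR-193a-5p, miR-3065-3p and miR-126b with 1 each, miR-9a-5p with 3 and miR-380-5p with 9. The highest were let-7f-5p with 3518 and let-7a-5p with 3039. Arms of the same precursor differed widely in some, such as miR-126a of endothelium, with 0 reads for the 5p strand and 2052261 for the 3p strand. Rows with no overlap were at 0 in 13.2% of 575 with 1 gene copy and in 5 of 19 with several.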
